A study of Mus musculus with 6 samples.

Results

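The growth hormone axis of the liver was followed through 10 genes of 17460 in the table: the receptor Ghr, the kinase Jak2, the transcription factors Stat5a and Stat5b, the feedback inhibitors Socs2 and Cish, the repressor Bcl6, and the secreted products Igf1, Igfals and Igfbp3. The genes were chosen by symbol, for their place in the pathway, and all 10 had a row of their own. The RNA came from livers of C57BL/6 mice aged 9 months, all given a nonalcoholic steatohepatitis (NASH) diet for 24 weeks. This diet is rich in fructose, trans fats and cholesterol. There were 3 control livers and 3 Blnc1 LKO livers, in which the long noncoding RNA Blnc1 had been targeted for deletion. The methods describe the LKO mice as Cas9 transgenic mice given, by tail vein, an adenovirus that carried a pair of guide RNAs against Blnc1. Cas9 transgenic mice given a GFP adenovirus are named as controls for the high-fat diet cohort, and the control vector of the NASH cohort is not given separately. Adenovirus reaches mainly hepatocytes, so other liver cells may keep the gene, and each library is whole-liver RNA. For this method the paper reports a partial loss of Blnc1 in whole liver and a greater one in isolated hepatocytes. It found little change in the non-parenchymal fraction. The table accounts for 65384969 to 89350181 reads per liver, 1 library each. In such bulk RNA, fewer cells of a type and less RNA per cell cannot be told apart. The table has no row named Blnc1, so its loss was not checked here.

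Growth hormone binds its receptor, and the receptor-bound kinase JAK2 phosphorylates STAT5A and STAT5B, which enter the nucleus and switch on target genes. Socs2 and Cish are fast targets whose proteins dampen the receptor's signal, and Bcl6 encodes a repressor that is itself turned down by growth hormone and competes with STAT5 at shared sites. Igf1 is the hormone through which much of the effect on growth runs, and the liver releases it into blood in a complex with the proteins of Igfbp3 and Igfals. In rodents the pulses of growth hormone differ between the sexes, and hepatic STAT5 activity follows them. The sex of the mice, and the hour and feeding state at collection, are not given in the labels.

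None of the 10 genes passed an adjusted p of 0.05 between control and LKO livers in limma, and none passed it in edgeR or DESeq2. The share of all 17297 genes tested that passed was 0.00578% in limma, 0.0116% in edgeR and 0.486% in DESeq2. At an unadjusted p under 0.05 in limma, 1 member passed, Bcl6, against 5.68% of all genes. The groups did not overlap in 1 member, Stat5b, against 10.6% of all genes. The LKO mean was above the control mean in 6 members and below it in 4 on the log2 scale, with a median log2 fold change of 0.014, beside -0.00099 over all genes tested. What separated the members was how much they varied from liver to liver: Ghr, Jak2, Stat5a, Stat5b and Igf1 stayed within narrow bounds, whereas the highest liver was 2.38 times the lowest in Socs2, 2.97 times in Cish and 2.18 times in Bcl6.

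STAT5 dimers bind the palindrome TTCNNNGAA, which reads the same on both strands, so the starts of the members were searched for it. The windows were those of RefSeq on GRCm38.p6, each 300 bases long, with 250 before and 50 after an annotated start. Windows were found for 9 members, 15 windows in all, and Socs2 was not matched. The palindrome was present in 5 windows of 3 members, Cish, Bcl6 and Igfals, with 8 matches in all. For comparison, 8.3% of all 32851 windows held it, and 0.457% held 2 or more copies. The stretches are shown because these 3 genes stand at different steps of the axis, an inhibitor, a repressor and a secreted product. Capitals mark the palindrome, and each line reads 5′ to 3′ on the gene's own strand.
Cish, plus strand, chr9:107296654-107296683: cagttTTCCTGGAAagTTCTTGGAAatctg
Bcl6, minus strand, upstream start, chr16:23988952-23988980: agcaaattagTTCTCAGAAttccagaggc
Bcl6, minus strand, internal start, chr16:23981433-23981461: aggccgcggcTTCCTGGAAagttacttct
Bcl6, minus strand, internal start, chr16:23981387-23981415: ggcaggagtgTTCTGTGAAatccttagag
Bcl6, minus strand, internal start, chr16:23981353-23981381: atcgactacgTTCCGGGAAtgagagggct
Igfals, plus strand, chr17:24877598-24877626: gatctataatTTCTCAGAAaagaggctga
Igfals, plus strand, chr17:24878163-24878191: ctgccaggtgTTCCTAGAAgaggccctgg
In Cish the pair of copies lay at the start itself, 11 bases apart from first letter to first letter. In Bcl6 one copy lay 118 bases before the upstream start, and 3 lay before an internal start. These are matches of letters, and binding was not measured. Cish and Bcl6 were among the most variable members across the livers, and Igfals was not.

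**Figure D1:**
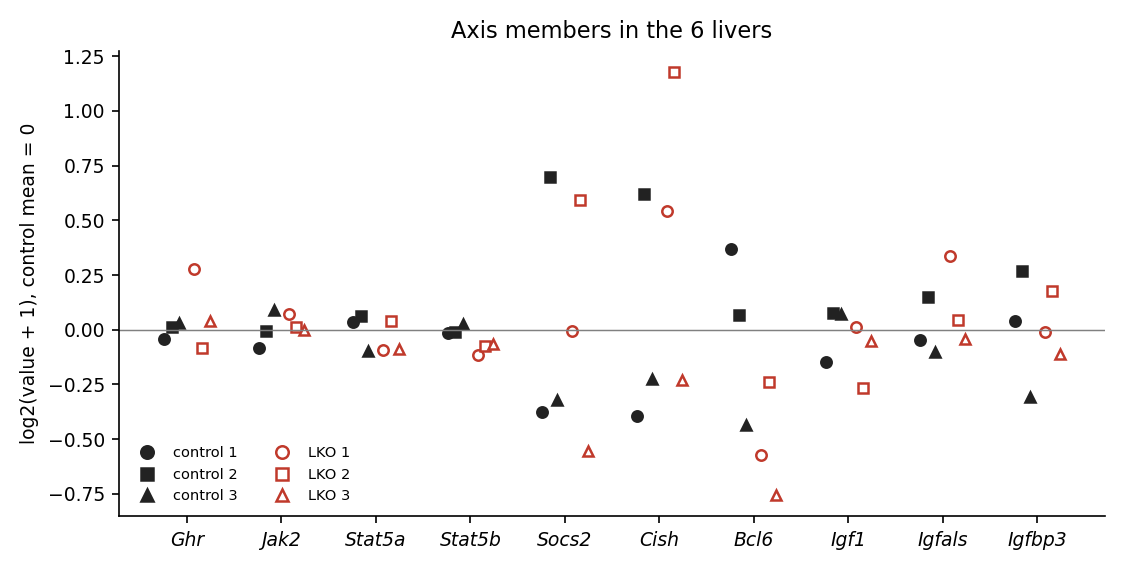
Each point is 1 liver, as log2(value + 1) with the control mean of the gene set to 0, for 3 control livers (filled) and 3 LKO livers (open), with the marker shape giving the liver's number. Ghr, Jak2, Stat5a and Stat5b lie in narrow bands, Stat5b alone has LKO points that all lie below the control points, and Socs2, Cish and Bcl6 spread most.

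The receptor was measured more deeply than any other member, with up to 48896 reads in a liver. Ghr had normalized values (reads divided by a size factor for each library) of 38476, 40081 and 40534 in the control livers and 48094, 37404 and 40853 in the LKO livers. The means were 39697 ± 1081 and 42117 ± 5456 (SD, n = 3 each), and the log2 fold change was 0.078 (SE 0.093, adjusted p = 0.976 in limma). LKO liver 1 stood above all others, and the remaining LKO livers lay on either side of control values. Without LKO liver 1 the log2 fold change was -0.022, so the direction rested on that liver. The 95% interval of the fold ran from 0.911 to 1.22.

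Jak2, the kinase that the receptor carries, varied by 1.13-fold over the 6 livers. The control livers were at 2286, 2412 and 2583 and the LKO livers at 2546, 2441 and 2419.6. The LKO values all fell inside the control range, with a log2 fold change of 0.026 (SE 0.062, adjusted p = 0.989 in limma) and a 95% interval of the fold from 0.923 to 1.12.

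The STAT5 genes lie side by side on chromosome 11 and encode closely related proteins. Stat5b was the more abundant, at 2.39 to 2.82 times the normalized value of Stat5a in each liver. Stat5b had values of 4033, 4049.5 and 4156 in control livers and 3763, 3874 and 3899 in LKO livers. Every LKO liver was below every control liver, with means of 4080 ± 66.7 and 3845 ± 72.5 (SD, n = 3 each). The log2 fold change was -0.085 (SE 0.048, adjusted p = 0.930 in limma), with a 95% interval of the fold from 0.873 to 1.02. Its residual SD was at percentile 1.09 of all genes tested, which made it one of the least variable genes of these livers, and the groups stood apart by a small amount. Stat5a had values of 1615, 1649 and 1474 in control and 1477, 1622 and 1484 in LKO livers, which overlapped, with a log2 fold change of -0.048 (SE 0.070, adjusted p = 0.980 in limma). With 1 liver left out, that of Stat5a ran from -0.097 without control liver 3 to -0.016 without control liver 2. With the reads of both genes summed, the log2 fold change was -0.075 (SE 0.048, adjusted p = 0.951 in limma). Stat5a shares 72 exon bases, 1.01% of its length, with Stat3 on the other strand, and the library kit did not mark strand.

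**Figure D2:**
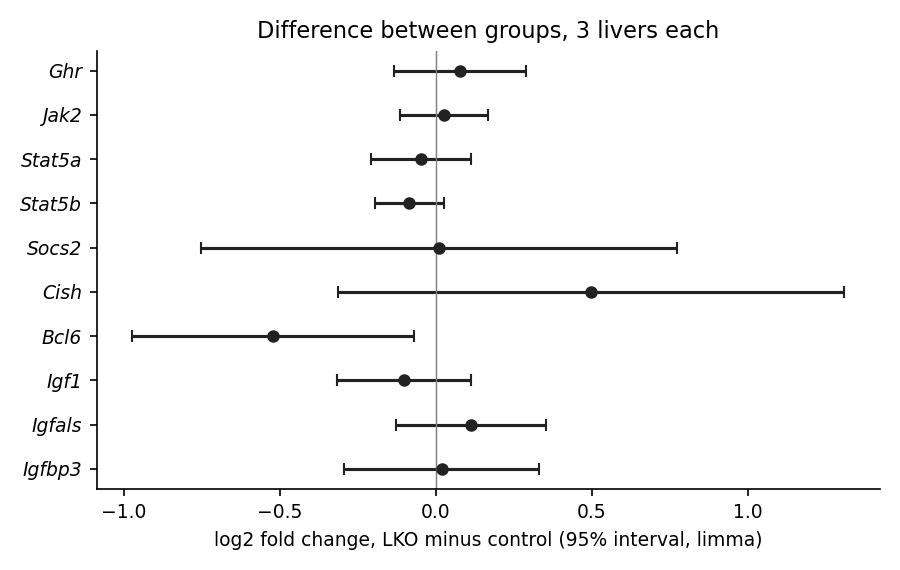
Points are log2 fold changes of the 10 members, LKO minus control, and bars are 95% intervals from limma with 3 livers per group. Stat5b and Jak2 have the narrowest intervals, Cish and Socs2 the widest, and the interval of Bcl6 alone does not cross 0, from -0.97 to -0.071, with an adjusted p of 0.840 over all genes. The intervals come from the fit with a variance trend, and without that trend the unadjusted p of Bcl6 in limma was 0.0819.

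Socs2 and Cish, the feedback inhibitors that STAT5 induces, varied far more than the genes above them. Socs2 had values of 990.2, 2084 and 1026 in control livers and 1278, 1935 and 875 in LKO livers. Control liver 2 and LKO liver 2 were the highest of their groups, and both lay above the other 4 livers, so the groups overlapped. The means were 1367 ± 621 and 1362 ± 535 (SD, n = 3 each), and the log2 fold change was 0.010 (SE 0.33, adjusted p = 0.9999 in limma). The 95% interval of the fold ran from 0.594 to 1.71. The sign depended on single livers, from -0.28 without LKO liver 2 to 0.36 without control liver 2. Counting error was small beside this spread: the lowest library held 963 reads of Socs2, with an exact Poisson 95% interval from 903.1 to 1026, which covers counting error only.

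Cish was at 1071, 2163 and 1203 in control livers and at 2052, 3186 and 1201 in LKO livers. The same livers as for Socs2 were highest within their groups, and LKO liver 3 was at the level of the low controls. The LKO mean was 1.45 times the control mean, 2146 ± 996 against 1479 ± 596 (SD, n = 3 each). On the log2 scale the difference was 0.50 (SE 0.36, adjusted p = 0.967 in limma). Its 95% interval ran from -0.31 to 1.31. Leaving out 1 liver at a time moved the log2 fold change between 0.16, without LKO liver 2, and 0.86, without LKO liver 3. Cish shares 4.07% of its exon bases with Gm17040 and 7.46% with Gm17041, both on the other strand, and neither has a row in the table.

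The levels of Socs2 and Cish went up and down together over the 6 livers. Pearson's r of their log2 levels was 0.889 (exact permutation p = 0.0264, two-sided) and Spearman's rho was 0.886 (exact permutation p = 0.0333, two-sided). After adjustment over the 65 correlations computed these became 0.658 and 0.773, so neither passed. With the 2 livers farthest from the Socs2 median left out r was 0.863, and with each group centred on its own mean it was 0.983. Socs2 and Cish ranked high in each other's likeness but not first: among 12487 genes compared with Socs2, Cish was in place 58.

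Bcl6, the repressor that opposes STAT5, had the largest difference of the 10 members relative to its SE in limma. That SE draws partly on the variances of other genes. The residual SD on the log2 scale was 0.341 for Bcl6 and 0.0255 for Stat5b, and relative to this SD Stat5b had the larger difference. Bcl6 was at 2574, 2089 and 1477 in control livers and at 1341, 1692 and 1181 in LKO livers. Control livers 1 and 2 were above every LKO liver, and control liver 3 lay below LKO liver 2, so the groups overlapped by this pair. The LKO mean was 0.686 of the control mean, 1405 ± 261 against 2047 ± 549.7 (SD, n = 3 each). The log2 fold change was -0.52 (SE 0.20, adjusted p = 0.840 in limma), with a 95% interval of the fold from 0.509 to 0.952. The unadjusted p was 0.0281 in limma, 0.0237 in edgeR and 0.00319 in DESeq2, where the adjusted p was 0.842 in edgeR and 0.262 in DESeq2. The difference was lower in LKO livers whichever liver was left out, between -0.74 without control liver 3 and -0.34 without control liver 1. An exact permutation test of 3 livers against 3 cannot give a p below 0.1.

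**Figure D3:**
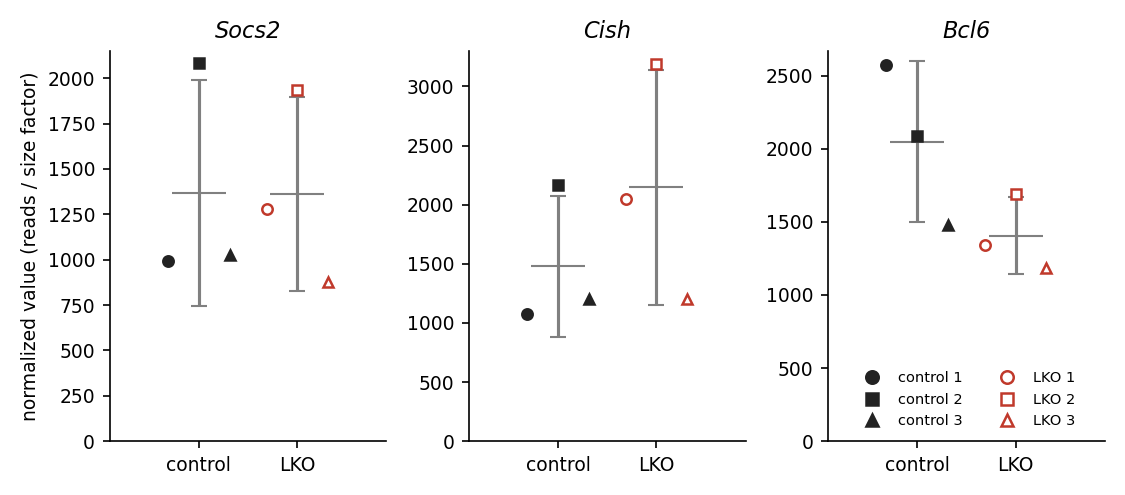
Normalized values (reads divided by size factor, axes from 0) of Socs2, Cish and Bcl6 in each liver, with filled markers for control, open markers for LKO, and grey bars for mean ± SD of 3 livers. The livers numbered 2 (squares) are highest in both groups for Socs2 and Cish, while for Bcl6 the LKO points lie between 1181 and 1692 and 2 of 3 control points lie above them.

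The secreted products did not separate the groups. Igf1 had values of 33640, 39264.5 and 39242 in control livers and 37591, 31026 and 35920.3 in LKO livers. The highest LKO liver was above the lowest control liver, and LKO liver 2 was the lowest of all 6. The means were 37382 ± 3241 and 34846 ± 3412 (SD, n = 3 each), and on the log2 scale LKO livers differed by -0.10 (SE 0.094, adjusted p = 0.973 in limma). The 95% interval of the fold, from 0.803 to 1.08, was narrower than those of Cish, Socs2 and Bcl6. The log2 fold change ran from -0.18 without control liver 1 to -0.021 without LKO liver 2.

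Igfals encodes the acid-labile subunit that keeps IGF1 in the circulation. It was at 4345, 4981 and 4184 in control livers and at 5678, 4637 and 4354 in LKO livers, a log2 fold change of 0.11 (SE 0.11, adjusted p = 0.973 in limma). As for Ghr, LKO liver 1 was the highest of all, and without it the log2 fold change was 0.00088. Igfbp3, the main carrier of IGF1 in blood, which non-parenchymal liver cells are known to express, was at 2789, 3273 and 2197 in control and at 2700.3, 3070.5 and 2512 in LKO livers. The LKO values lay inside the control range, with a log2 fold change of 0.018 (SE 0.14, adjusted p = 0.999 in limma). Igf1 and Igfals, which share their control by growth hormone, were not closely tied over these livers, with Pearson's r of 0.201 (exact permutation p = 0.693) and Spearman's rho of 0.143, and r was 0.0253 without the 2 farthest livers.

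Per kilobase of exon, on GENCODE M21 models of GRCm38, the axis spanned a wide range of levels. The length was that of all annotated exons of a gene merged over its transcripts, 6419 bases for Cish and 9531 for Socs2. A gene whose expressed transcripts are shorter than this has its level understated. Ghr was highest in control livers, at 4385 ± 119 normalized reads per kb (SD, n = 3), followed by Igf1 at 3774 ± 327. Igfals was at 1422 ± 133, Igfbp3 at 879.5 ± 172 and Stat5b at 737 ± 12.1. Below them came Jak2 at 483 ± 29.6, Bcl6 at 306 ± 82.0, Cish at 230.4 ± 92.8, Stat5a at 221 ± 13.0 and Socs2 at 143 ± 65.2. Neighbours whose values overlapped over the 6 livers were Igfbp3 with Stat5b, Bcl6 with Cish, Cish with Stat5a, and Stat5a with Socs2. By this length the receptor and the hormone were at the top of the order, and Stat5a stood with the inhibitors near the bottom. The places of Cish, Stat5a and Socs2 depend on the length used, and other lengths were not tried. In LKO livers Cish, at 334 ± 155 per kb, stood above Bcl6, at 209.7 ± 39.0, and this pair overlapped.

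**Figure D4:**
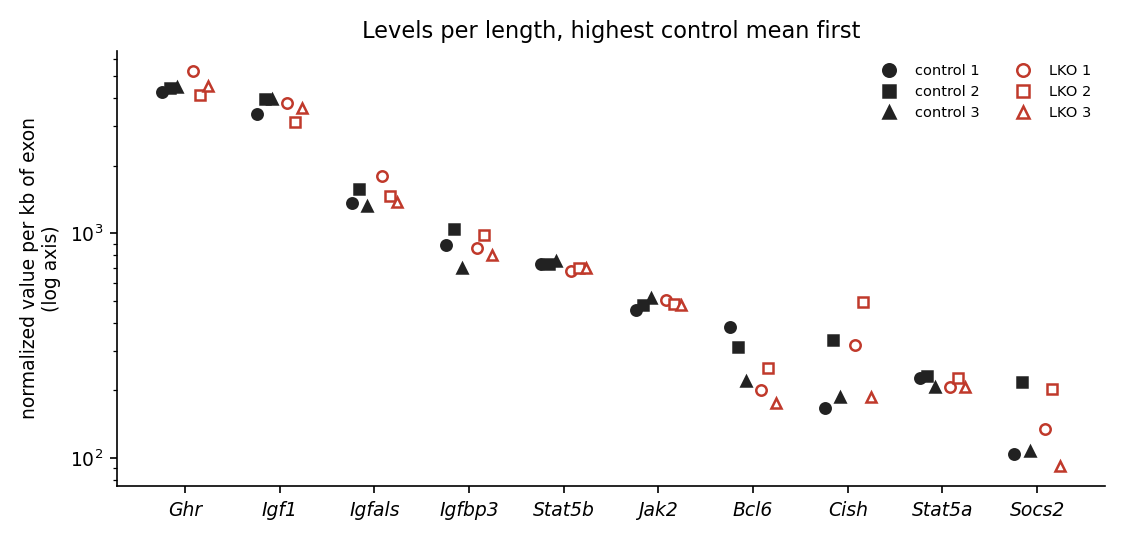
Normalized value per kb of exon for the 10 members, on a log axis, ordered by control mean, with 1 point per liver (filled control, open LKO). Ghr and Igf1 are highest, Socs2 lowest, from 91.8 in its lowest liver to 219 in its highest.

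The genes sit at chr15:3317760-3583492 (Ghr), chr10:87858265-87937042 (Igf1), chr17:24865997-24882010 (Igfals), chr11:7206086-7213923 (Igfbp3), chr11:100780731-100850724 (Stat5b), chr19:29251828-29313080 (Jak2), chr16:23965052-23988852 (Bcl6), chr9:107296026-107302784 (Cish), chr11:100859351-100885169 (Stat5a) and chr10:95385362-95417180 (Socs2) on GRCm38. The table gives 1 value per gene and liver, with no split by isoform.

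The genes closest in pattern to 4 members were found by Pearson's r of log2 levels over the 6 livers among 12487 genes, as a description. Closest to Ghr were Azgp1 (r = 0.998), Cdc14b (0.998) and Ufsp2 (0.997), and 182 genes had r above 0.95. Closest to Igf1 were Aard (0.989), Fgd4 (0.988) and Prepl (0.978), with 20 genes above 0.95. Closest to Socs2 were Ankrd37 (0.970), C2 (0.967) and Rpl27a (0.967), with 7 genes above 0.95. Closest to Bcl6 were Sepw1 (0.986), Igsf11 (0.985) and Dbndd2 (0.982), with 23 genes above 0.95. The genes compared were measured in the same libraries, which differ in depth, and with 6 points many genes reach such values.

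The receptor's partners and brakes were looked at as lists. Of 15 relatives and partners of the receptor complex, none passed adjusted p in limma, edgeR or DESeq2, with 3 higher and 12 lower in LKO livers and a median log2 fold change of -0.040. Jak1, the kinase of many cytokine receptors, was lower in every LKO liver than in any control liver, between 9895 and 10350 against 10843 to 11108 in control livers (log2 fold change -0.10, adjusted p = 0.891 in limma). The groups stood apart in 3 of the 15, all lower, against 10.6% of all genes in either direction. Prlr, the prolactin receptor and closest relative of Ghr, was between 2666 and 3578 in control and between 1934 and 4061 in LKO livers, with a log2 fold change of -0.31 (SE 0.25, adjusted p = 0.971 in limma).

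Of 15 inhibitors of the signal, 8 were higher and 7 lower, none passed adjusted p in any of the tools, and none had an unadjusted p under 0.05 in limma. Pias3 was between 827 and 928 in control livers and between 953 and 1006 in LKO livers, a log2 fold change of 0.15 (adjusted p = 0.891 in limma). Socs7 was between 1027 and 1074 against 1109.6 and 1164, a log2 fold change of 0.11 (adjusted p = 0.930 in limma). In both genes the groups stood apart, as they did in 3 of the 15, against 10.6% of all genes. Socs3, the inhibitor most tied to inflammatory cytokines, was between 789 and 1124 in control and between 844 and 1154 in LKO livers (log2 fold change 0.13, SE 0.16, adjusted p = 0.978 in limma). Control liver 2 and LKO liver 2 were highest in their groups for Socs3, as for Socs2 and Cish.

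In a list of IGF ligands, receptors and binding proteins other than the members, 12 genes were measured, 5 higher and 7 lower. The median log2 fold change was -0.094, and none passed adjusted p in any of the tools. The list also held Igf2bp2 and Igf2bp3, whose proteins bind mRNA and not IGF. Both were among the lower genes, with log2 fold changes of -0.11 and -0.18. Igfbp2, a binding protein that hepatocytes secrete, was the 1 gene with an unadjusted p under 0.05. It was at 11958, 13622 and 14052 in control livers and at 17394, 15712 and 13776 in LKO livers, with a log2 fold change of 0.24 (SE 0.095, adjusted p = 0.851 in limma), and the groups overlapped by LKO liver 3. Igf2, the fetal relative of Igf1, was barely present, between 26.6 and 50.1 in control and between 45.1 and 75.2 in LKO livers (log2 fold change 0.52, adjusted p = 0.930 in limma). Igf1r, the receptor of IGF1, was low, between 421 and 549 in all livers, with a log2 fold change of -0.10 (adjusted p = 0.973 in limma). Igfbp1, which insulin represses, was between 3870.2 and 7012 in control and between 3806 and 5575 in LKO livers (log2 fold change -0.16, SE 0.21, adjusted p = 0.978 in limma).

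Of 6 measured proteases that release IGF1 from its binding proteins, and their inhibitors, 1 was higher and 5 lower, with no unadjusted p under 0.05 in limma and no call in any tool. Stc1, an inhibitor of such a protease, was between 47.9 and 96.9 in control and between 35.7 and 63.9 in LKO livers (log2 fold change -0.47, adjusted p = 0.951 in limma). Adam12, which cleaves binding proteins, was between 76.7 and 101 in control and between 72.6 and 78.9 in LKO livers (log2 fold change -0.23, adjusted p = 0.968 in limma). Of 10 transcription factors that respond to growth hormone, 6 were higher and 4 lower, again without a call in any tool or an unadjusted p under 0.05. Onecut1, a hepatocyte factor, was at 346, 648 and 273 in control livers and at 664, 639 and 527 in LKO livers, a log2 fold change of 0.62 (SE 0.27, adjusted p = 0.875 in limma), with control liver 2 inside the LKO range. Rarb, a retinoic acid receptor, had a log2 fold change of -0.15 (adjusted p = 0.973 in limma). Cux2, a repressor of male liver genes in females, was low in every liver, between 26.1 and 41.3, with a log2 fold change of 0.0010 (adjusted p = 0.9999 in limma).

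The genes that growth hormone sets differently in males and females give a readout downstream of STAT5. All 16 male-biased genes were higher in LKO livers, with a median log2 fold change of 0.86, and 13 had an unadjusted p under 0.05, against 5.68% of all genes in either direction, but none passed adjusted p in limma or edgeR and 1, Susd4, passed in DESeq2. This list was set up with its pattern in these livers already known, so its direction is no independent evidence. Susd4 was at 393, 602 and 341 in control and at 1139, 707 and 1086 in LKO livers (log2 fold change 1.14, SE 0.24, adjusted p = 0.548 in limma). Cyp4a12b, a male-biased fatty acid hydroxylase, was at 2311, 3975 and 2540.4 in control and at 8777, 4562 and 12357 in LKO livers (log2 fold change 1.47, SE 0.34, adjusted p = 0.548 in limma). In both genes control liver 2 was the highest control and LKO liver 2 the lowest LKO liver. Of 17 female-biased genes 10 were higher and 7 lower, with a median of 0.14. Cyp17a1, a steroid hydroxylase, was at 3198, 2179 and 2796 in control and at 1722, 949.9 and 1008 in LKO livers (log2 fold change -1.19, SE 0.22, adjusted p = 0.523 in limma). Cyp3a44 was barely present, with 4 to 31 reads per liver. It was at 13.1, 4.26 and 12.8 in control and at 36.9, 17.9 and 21.7 in LKO livers (log2 fold change 1.33, SE 0.46, adjusted p = 0.824 in limma).

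The members differed in how they ranked the livers beside the male-biased list. The mean log2 level of that list, relative to the control mean, was -0.35, 0.60 and -0.25 in control livers and 2.02, 0.68 and 1.41 in LKO livers, so control liver 2 nearly met LKO liver 2. Mup7, Hsd3b5 and Moxd1 had the list's largest log2 fold changes, 4.10, 4.04 and 2.78 beside a median of 0.86, and so weigh most in its mean. Mup7 was at 93552.5 in LKO liver 1, 5012 in control liver 2 and 3605 in LKO liver 2. Moxd1 was at 0 in control livers 1 and 2. Correlations with this mean were not repeated without these genes. Pearson's r of this mean was 0.0892 with Socs2 (exact permutation p = 0.879), 0.387 with Cish (exact permutation p = 0.431) and 0.0927 with Igf1 (exact permutation p = 0.871). Spearman's rho was 0.0857, 0.371 and -0.0286 in the same order, with exact permutation p of 0.919, 0.497 and 1.0. Igfals and Ghr had higher values, with r of 0.728 (exact permutation p = 0.115) and 0.716 (exact permutation p = 0.0944) and rho of 0.714 (exact permutation p = 0.136) and 0.6 (exact permutation p = 0.242). Without the 2 farthest livers these r were 0.239 and 0.0122, and with each group centred on its mean they were 0.779 and 0.805, beside 0.813 for Igf1. Bcl6 ran the other way, with r of -0.671 (exact permutation p = 0.142) and rho of -0.771 (exact permutation p = 0.103), which became -0.356 without the 2 farthest livers and -0.27 with each group centred on its mean. Stat5b had r of -0.872 (exact permutation p = 0.0361) and rho of -0.771 (exact permutation p = 0.103), and its centred r was -0.555. None of the 65 correlations passed after adjustment, the smallest adjusted p being 0.658 for Pearson's r and 0.773 for Spearman's rho.

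**Figure D5:**
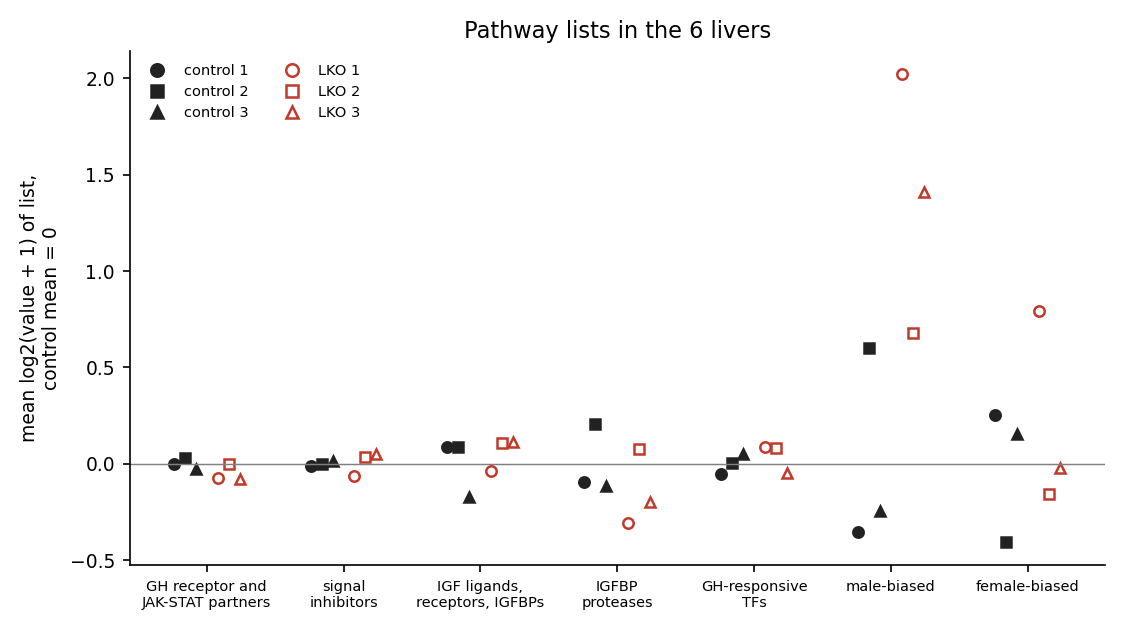
Mean log2(value + 1) of each list in each liver, with the control mean set to 0 (filled control, open LKO). The lists of receptor partners, signal inhibitors and transcription factors stay near 0, and the male-biased list reaches 2.02 in LKO liver 1 and 0.68 in LKO liver 2, next to 0.60 in control liver 2.

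Marker genes of the liver's cell types were read beside these results. The summed level of 7 measured hepatocyte markers of 8 was between 5553300 and 6126700 in control and between 5421650 and 6520810 in LKO livers. It was highest in LKO liver 1, where Ghr and Igfals were also highest. Alb gave most of the sum, 4651990 in that liver. Alb, Apob, Ttr and Serpinc1 were highest there, and Apoa1, Cps1 and Fgb in other livers. The summed value of all genes was also highest there, at 77812583. The 7 Kupffer cell and macrophage markers summed to between 52825 and 60423 in control and between 59354 and 68048 in LKO livers. Among them 6 were higher and 1, Cd68, lower (log2 fold change -0.13). In 4 the unadjusted p in limma was under 0.05, all higher, against 5.68% of all genes in either direction. The 7 sinusoidal endothelial markers summed to between 28855 and 31036 in control and between 28188 and 28707 in LKO livers. The sums did not overlap, by a narrow margin, with control liver 2 at 28855 and LKO liver 1 at 28707. As single genes 2 of the 7, Stab1 and Pecam1, stood apart, both lower, against 10.6% of all genes in either direction. Of these markers 5 were lower and 2 higher, Stab2 (log2 fold change 0.062) and Clec4g (0.024). Unadjusted p in limma was under 0.05 in 3, all lower. No marker was at 0 in any liver, and the part of these cells in the levels of Igfbp3 and the other genes above was not tested.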

How the data were processed

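PolyA RNA from whole liver was sequenced by the authors on a HiSeq2500 after a TruSeq v2 preparation, and the submitters' notes name FastQC, STAR, HTSeq, DESeq2 and mm10, without versions. The deposited signal values are read counts of genes scaled by the size factor of their library, and whole reads were recovered for 100% of values, to within 0.05 of a read. Values were tested as log2(value + 1) in limma 3.58.1 with a trend (R 4.3.3) over the 17297 genes that reached 1 in 3 or more livers, with Benjamini-Hochberg adjustment. Fold changes on this scale understate the change of low genes. Groups were the 3 control and the 3 LKO livers of the labels, and p-values of these fits are set against the spread between these livers. For each gene, limma, edgeR and DESeq2 draw that spread partly from other genes. Alternatives were edgeR 4.0.16 (quasi-likelihood) and DESeq2 1.42.0 on recovered reads, voom, library size alone, a pseudocount of 0.1, other filters, no trend, a block for the liver number, summed Stat5a and Stat5b, and each liver left out. The fits were tested on simulated data.

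The members and gene lists were chosen with earlier results of these data known. The text names all 10 members, the called genes of each pathway list or else the 2 of smallest p, a few genes that define the signal, and the 3 genes closest in pattern to each of 4 members among genes with a mean of at least 100. Correlations used exact permutation over 720 pairings of the 6 livers, whose smallest p is 0.0028. No set test was run. For the list of receptor partners, 1 result that this rule would name is not reported here.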

Additional observations from a re-analysis of the deposited data

How the results depend on the processing

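Over all genes limma called 1 gene, edgeR 2, DESeq2 84, limma without a filter 2, and limma with 1 liver left out between 0 and 13, the highest without LKO liver 2. With both livers numbered 2 left out, an alternative chosen after seeing the data, it called 18. The liver numbers are not shown to pair mice. Over all genes, the deviations of same-numbered livers had r of -0.058, -0.019 and -0.11. Over the 10 members alone these were -0.21, 0.87 and 0.63. Differently numbered livers reached 0.56 (control 1 with LKO 3) and 0.48 (control 3 with LKO 1), and their other pairs were below 0. So few genes cannot settle whether the numbers pair mice. With the replicate block, limma called 0 genes (983 had an unadjusted p under 0.05 without the block) and DESeq2 64, and 1 of the 10 members was then called, Bcl6 in DESeq2, with a log2 fold change of -0.522 and an adjusted p of 0.0495, where its adjusted p ran up to 0.946 over the other alternatives that kept all livers or left out both numbered 2, and from 0.348 to 1.00 with 1 liver left out. With the same block in DESeq2 Susd4 was no longer called (adjusted p 0.654, beside 2.3e-04 without it), and Cyp17a1 was (1.86e-16, beside 0.0735 without it, and 0.0758 in limma with it). The count of members whose groups did not overlap was 1, and between 1 and 3 with 1 liver left out. It was 3 without control liver 3 or LKO liver 2. With fewer livers, groups stand apart more easily, and the share of all genes was not computed for these settings. These counts therefore cannot be set beside the 10.6% of all genes found with all livers. Socs2 turned to -0.00363 in edgeR and -0.0043 in DESeq2. With 1 liver left out, the log2 fold change ran from -0.28 to 0.36 for Socs2, from -0.0162 to 0.0718 for Jak2, from -0.135 to 0.152 for Igfbp3 and from -0.0218 to 0.159 for Ghr. Igf1 was at 0.0163 with both livers numbered 2 left out. Stat5a, Stat5b, Cish, Bcl6 and Igfals kept their direction in every alternative run, and the cause of the other changes was not tested. With 3 livers a group, the widths of the intervals, and not the read counts, limit what can be seen of Socs2 and Cish.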

Other observations

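Acute-phase genes, which hepatocytes switch on through Stat3 under inflammation, were lower in LKO livers in 5 of 6, with a median log2 fold change of -0.28, and 4 had an unadjusted p under 0.05 in limma, all lower, against 5.68% of all genes in either direction. None passed adjusted p in limma or edgeR, and 1, Orm2, an orosomucoid, passed in DESeq2. Orm2 was at 7851, 10193 and 8221 in control livers and at 6467, 6637 and 4900.3 in LKO livers, so the groups did not overlap (log2 fold change -0.55, SE 0.13, adjusted p = 0.555 in limma). They stood apart in 2 of the 6 acute-phase genes, both lower, against 10.6% of all genes in either direction. Of 6 stellate cell markers, 3 were higher and 3 lower, and Rgs5, a regulator of G protein signalling in mural cells, passed in DESeq2. It was at 2061, 2179 and 2332 in control livers and at 1789.9, 1789.9 and 1793 in LKO livers (log2 fold change -0.29, SE 0.062, adjusted p = 0.548 in limma). These genes and those of the cholangiocyte and lymphocyte lists are given as values. Of 5 cholangiocyte markers 1 was higher and 4 lower, and of 5 lymphocyte markers 2 were higher and 3 lower, with no unadjusted p under 0.05 in limma and no call in any of the tools.

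Over the members, Stat5a and Igfbp3 had the smallest p of the 65 correlations, with Pearson's r of 0.853 (exact permutation p = 0.0153) and Spearman's rho of 0.943 (exact permutation p = 0.0167). After adjustment these were 0.658 and 0.773, and without the 2 farthest livers r was 0.809. Socs2 and Igfbp3 had r of 0.812 (exact permutation p = 0.0569), and 0.239 without the 2 farthest livers, so this relation rested on them.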
